A study of Rattus norvegicus with 12 samples.

Results

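The calcium handling genes described here are 6 genes that move calcium in skeletal muscle fibres: Atp2a1, Atp2a2, Cacna1s, Ryr1, Casq1 and Pvalb. They were chosen by mouse Ensembl identifier, and each was found once in both deposited tables, so that they make up 6 of the 56953 genes listed. The identifiers are ENSMUSG00000030730 for Atp2a1, ENSMUSG00000029467 for Atp2a2, ENSMUSG00000026407 for Cacna1s, ENSMUSG00000030592 for Ryr1, ENSMUSG00000007122 for Casq1 and ENSMUSG00000005716 for Pvalb. Bulk RNA-seq was made from muscle at an implantation or surgery site in wild-type rats of the outbred Long-Evans strain. The labels hold 12 samples in 4 groups of 3: back muscle or leg muscle, either given a magnetic fluid by injection (MFIT) or taken as no-treatment or sham-surgery controls (NT). Collection 7 and 14 days after surgery is named for the series, but no day is given for a sample, nor an age, nor whether a back and a leg sample came from the same rat. The muscle can be read from the column names of the tables, which begin as the library names of each muscle do. Treatment cannot be read from them: 3 columns of each muscle are headed ST and 3 headed WT, and neither code names a treatment in the labels. Leg muscle was therefore tested against back muscle, 6 columns each, with injected and control tissue mixed in both. The ST and WT columns are given as values without a test, and no direction of a treatment effect can be drawn from them.

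In a muscle fibre, the voltage sensor Cacna1s (the pore subunit of the L-type calcium channel of the transverse tubule) opens the release channel Ryr1 in the sarcoplasmic reticulum, and the calcium released starts contraction. Casq1 binds calcium inside the reticulum, Pvalb (parvalbumin) binds it in the cytosol of fast fibres, and the SERCA pumps return it to the store. Atp2a1 encodes the pump of fast fibres (SERCA1), and Atp2a2 the pump of slow fibres and heart (SERCA2). Among fibres, the balance of these pumps is a well-known mark of fibre type. In bulk tissue, Atp2a2 counts may also come from cells other than fibres.

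The promoters of 4 members are shown because the values below turn on them: the pump genes, of which Atp2a2 was higher in leg and Atp2a1 did not pass the test, and Casq1 and Pvalb, which were both lower in leg. Each is the window from 250 bases before to 50 bases after the gene start in the rat RefSeq annotation of GRCr8, written 5′ to 3′ along the gene, and all 6 members were matched to it by symbol. Atp2a1 lies at chr1:190475361-190475660 on the minus strand, Atp2a2 at chr12:39733269-39733568 on the plus strand, Casq1 at chr13:87212661-87212960 on the minus strand and Pvalb at chr7:111666240-111666539 on the minus strand. Capitals mark each E-box, CANNTG, the short pattern that myogenic regulators are known to bind.
Atp2a1: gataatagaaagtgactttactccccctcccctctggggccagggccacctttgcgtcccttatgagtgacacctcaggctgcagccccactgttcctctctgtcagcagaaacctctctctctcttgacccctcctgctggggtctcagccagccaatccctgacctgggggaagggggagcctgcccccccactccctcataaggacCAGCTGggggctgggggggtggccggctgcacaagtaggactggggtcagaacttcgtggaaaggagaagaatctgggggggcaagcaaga
Atp2a2: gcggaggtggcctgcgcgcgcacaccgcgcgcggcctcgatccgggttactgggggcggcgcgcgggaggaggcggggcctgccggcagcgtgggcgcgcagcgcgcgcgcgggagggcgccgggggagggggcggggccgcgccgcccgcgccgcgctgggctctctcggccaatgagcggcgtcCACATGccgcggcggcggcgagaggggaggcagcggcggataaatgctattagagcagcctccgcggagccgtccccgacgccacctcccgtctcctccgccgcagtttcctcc
Casq1: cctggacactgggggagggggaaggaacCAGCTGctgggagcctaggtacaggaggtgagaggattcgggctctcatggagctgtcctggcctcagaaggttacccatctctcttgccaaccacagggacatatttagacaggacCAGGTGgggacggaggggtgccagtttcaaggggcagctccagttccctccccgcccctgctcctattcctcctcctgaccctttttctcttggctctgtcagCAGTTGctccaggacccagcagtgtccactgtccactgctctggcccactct
Pvalb: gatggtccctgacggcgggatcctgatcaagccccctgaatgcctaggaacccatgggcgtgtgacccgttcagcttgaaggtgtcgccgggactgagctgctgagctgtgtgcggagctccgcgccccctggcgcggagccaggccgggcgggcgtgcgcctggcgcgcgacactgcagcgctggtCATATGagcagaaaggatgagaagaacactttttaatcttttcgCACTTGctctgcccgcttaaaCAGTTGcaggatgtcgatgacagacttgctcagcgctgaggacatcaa
All 6 member promoters held CANNTG, between 1 and 3 times, but so did 72.1% of the 33469 rat promoters of 300 bases. The Atp2a2 window differed from the others in base composition. It was 79.0% G and C with 52 CG dinucleotides, above 99.5% of all promoters in CG number, and held the GC box GGGCGG 3 times over both strands. The Atp2a1 window was 61.0% G and C with 3 CG dinucleotides and no GC box. The GC box was not particular to Atp2a2, with 2 in each of the Ryr1 and Cacna1s windows and 1 in each of Casq1 and Pvalb. Casq1 also had 3 CG dinucleotides, Cacna1s had 4, Ryr1 had 10 and Pvalb had 23, against a median of 7 over all promoters. The GC box was found in 33.1% of all promoters, and TATAAA on either strand, in 14.2%, occurred in the Cacna1s window alone among the 6. These matches describe letters only.

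The columns held 3329994 to 7164682 gene counts. Between 52.4% and 61.2% of reads in each column were unmapped, and the identifiers are those of mouse although the tissue is labelled rat. How many rat reads of each gene were counted is not known, so levels are compared between columns and not between genes. Atp2a1 ranked 3rd to 5th of all genes by raw count in each of the 12 columns, a rank of counts and not of RNA abundance. Other markers of fibres, fat, fibroblasts and macrophages were not looked up here for want of mouse symbols. In bulk tissue, fewer fibres of a type, less RNA per fibre and RNA from cells other than fibres cannot be told apart.

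Back columns ST2 and ST3 stood apart from the other back columns. The other 4 back columns correlated with each other at a mean r of 0.981 to 0.982 over the log2 CPM (counts-per-million) levels for 9748 genes. ST2 correlated with those 4 at 0.941 and with the leg columns at 0.966, and ST3 at 0.953 and 0.956. ST2 and ST3 correlated with each other at 0.974. Ambiguous reads made up 4.70% and 4.61% in these columns and 6.52% to 7.31% in the other 4 back columns. Unmapped reads made up 61.0% and 58.8% in ST2 and ST3 and 52.4% to 57.7% in the other 4 back columns. The part of either in the results was not tested. Results that rest on back ST2 and ST3 are given with and without them. Both were picked from these same data and correlated more with the leg columns than with the other back columns. Leaving them out therefore tends to widen a difference between leg and back. The p-values without them describe the remaining columns and are no independent evidence.

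**Figure D1:**
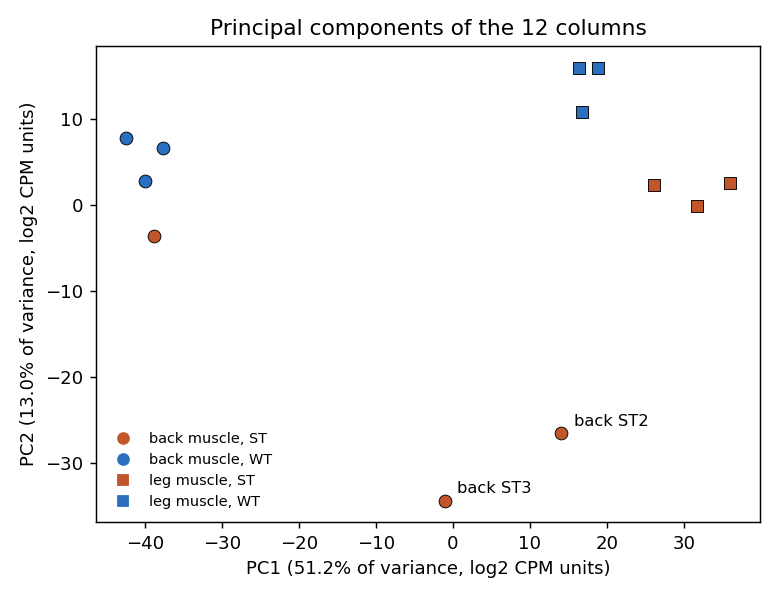
Principal components of log2 CPM over the 9748 genes tested, with 1 point per column, circles for back and squares for leg muscle, coloured by header code. PC1 holds 51.2% of the variance, with 4 back columns at its left end, the leg columns at the right, and back ST2 and ST3 between them and lowest on PC2.

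Levels below are counts-per-million (CPM) after edgeR's TMM scaling, which corrects each library total for a few abundant genes taking a large share. Among the 6 genes, 1 was higher in leg muscle, 2 were lower and 3 did not pass the test. Over all 9748 genes tested, 803 were higher in leg (8.24%) and 736 lower (7.55%), together 1539 or 15.8%, in edgeR's quasi-likelihood test at a Benjamini-Hochberg adjusted p under 0.05. The median log2 difference was -0.27 over the 6 members and -0.01 over all genes tested. All 6 members passed the filter on low counts. Scaling by total counts alone moved the median of all genes to 0.21 and the higher share of the called genes from 52.2% to 87.9%, so differences of that size in either direction depend on the scaling.

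Of the pump genes, only Atp2a2 passed the test. Atp2a2, the SERCA2 gene, was 5.36-fold higher in leg muscle, a log2 difference of 2.42 ± 0.45 (SE, n = 6 and 6; edgeR adjusted p = 0.0026). That fold is from the edgeR fit, while the geometric means of the columns were 318 CPM in back and 2328 CPM in leg muscle. In back muscle the Atp2a2 level was 166, 1228 and 549 CPM in the ST1, ST2 and ST3 columns and 357, 164 and 158 CPM in WT1, WT2 and WT3. In leg muscle it was 2083, 2210 and 2051 CPM in the ST columns and 2547, 2666 and 2487 CPM in the WT columns. The lowest leg column lay above the highest back column, ST2. Back columns differed among themselves by up to 7.75-fold, and leg columns by up to 1.30-fold. Without back ST2 the log2 difference was 3.06 (edgeR adjusted p = 8.0e-06), and without back ST2 and ST3 it was 3.46 (edgeR adjusted p = 4.1e-09). Within the WT columns it was 3.50 (edgeR adjusted p = 2.3e-08), and within the ST columns it was 1.71 and did not pass (edgeR adjusted p = 0.14).

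Atp2a1, the fast-fibre pump, did not pass the test. Its level in back muscle was 44618, 43033 and 43582 CPM in the ST columns and 41171, 44027 and 43195 CPM in the WT columns. In leg muscle it was 33473, 29934 and 28552 CPM in the ST columns and 46274, 43698 and 42840 CPM in the WT columns. On the TMM scale the back columns differed by at most 1.08-fold, including ST2 and ST3. Scaled by total counts, back ST2 and ST3 were at 46044.5 and 45527.2 CPM, against 35753.1 to 38394.6 in the other back columns. The TMM factors were 1.07 and 1.05 in these columns and 0.85 to 0.87 in the other back columns. The leg columns fell into a lower set headed ST and a higher set headed WT. The log2 difference, leg minus back, was -0.21 (95% interval -0.53 to 0.12; edgeR adjusted p = 0.40). It was -0.01 when scaled by total counts and 0.053 within the WT columns (edgeR adjusted p = 0.58). Within the ST columns it was -0.52 (edgeR adjusted p = 0.25), and there all 3 leg columns lay below all 3 back columns. The direction thus differed with the columns used.

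Neither the release channel Ryr1 nor the voltage sensor Cacna1s passed the test. Ryr1 was at 11137, 6870 and 7765 CPM in the back ST columns and 10814, 10507 and 10888 CPM in the back WT columns. In leg muscle it was at 7740, 7111 and 6310 CPM in the ST columns and 8303, 8529 and 8170 CPM in the WT columns. The 4 other back columns lay above every leg column, and ST2 and ST3 lay within the leg range. The log2 difference was -0.33 (95% interval -0.64 to -0.02) and did not pass after adjustment over all genes (edgeR adjusted p = 0.14). Without back ST2 and ST3 it was -0.50 (edgeR adjusted p = 0.0018), and without ST2 alone -0.42 (edgeR adjusted p = 0.030). Both fits leave out columns picked from these data. Within the WT columns it was -0.36 and passed (edgeR adjusted p = 7.0e-04). Scaled by total counts it was -0.09 (edgeR adjusted p = 0.50).

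Cacna1s ranged from 1350 to 2356 CPM in back muscle, with a median of 2153, and from 1439 to 2165 CPM in leg muscle, with a median of 1926. Its log2 difference was -0.07 (95% interval -0.40 to 0.25; edgeR adjusted p = 0.81) and turned to 0.16 when scaled by total counts, so no direction held. Back ST2 and ST3, at 1350 and 1586 CPM, were the lowest back columns for this gene too.

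The calcium buffers were both lower in leg muscle. Casq1, the buffer inside the store, was 2.17-fold higher in back than in leg, a log2 difference of -1.12 ± 0.25 (SE, n = 6 and 6; edgeR adjusted p = 0.0090). Its back level was 1792, 667 and 850 CPM in the ST columns and 2038, 1910 and 1994 CPM in the WT columns. Its leg level was 677, 572 and 541 CPM in the ST columns and 849, 783 and 847 CPM in the WT columns. The muscles overlapped only through back ST2, since ST3 lay just above the highest leg column.

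Pvalb, the cytosolic buffer, was 2.24-fold higher in back than in leg, a log2 difference of -1.16 ± 0.27 (SE, n = 6 and 6; edgeR adjusted p = 0.011). Its back level was 3703, 1439 and 1759 CPM in the ST columns and 3405, 4345 and 3853 CPM in the WT columns. Its leg level was 1118, 954 and 894 CPM in the ST columns and 1900, 1709 and 1679 CPM in the WT columns. Back ST2 and ST3 lay within the leg range and the other back columns above it. Without these 2 columns the log2 difference was -1.45 for Casq1 (edgeR adjusted p = 2.2e-07) and -1.48 for Pvalb (edgeR adjusted p = 1.4e-05). Neither passed within the ST columns, where the log2 difference was -0.90 for Casq1 (edgeR adjusted p = 0.18) and -1.23 for Pvalb (edgeR adjusted p = 0.086), while both passed within the WT columns, at -1.26 and -1.13 (edgeR adjusted p = 1.2e-08 and 2.8e-07).

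**Figure D2:**
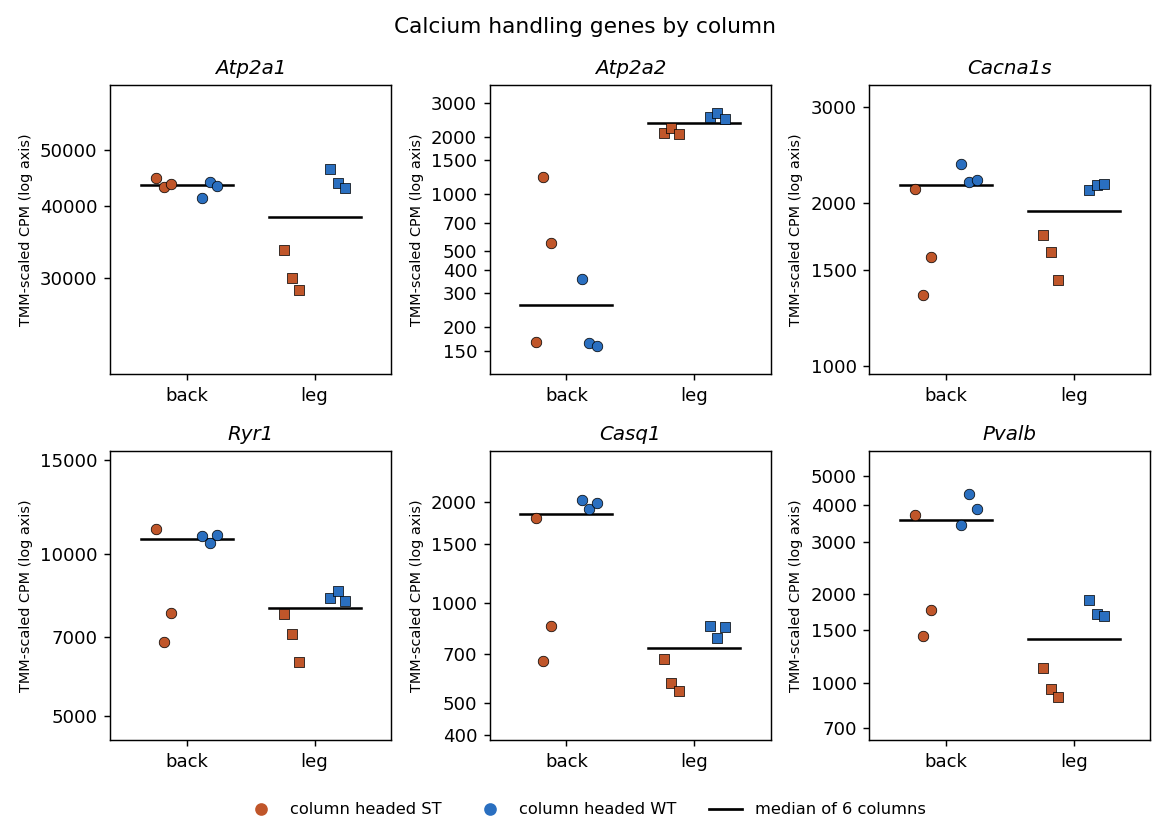
TMM-scaled CPM of each gene (log axis) in the 6 back and 6 leg columns, coloured by header code, with a line at the median of each muscle. Atp2a2 shows no overlap between the muscles, and in back muscle ST2 and ST3 are the highest columns for Atp2a2 and the lowest for Ryr1, Casq1, Cacna1s and Pvalb.

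**Figure D3:**
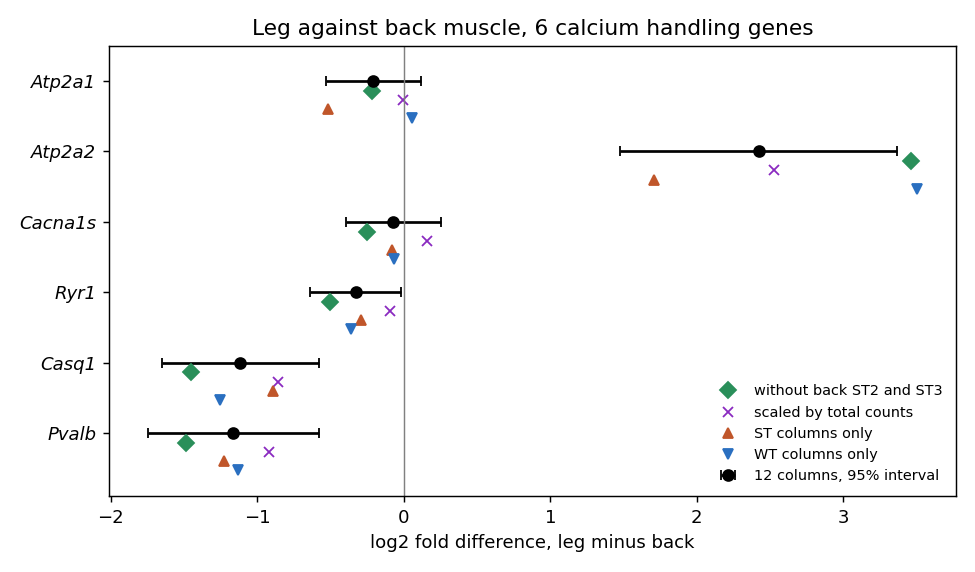
Log2 fold difference, leg minus back, for each gene, with the 95% interval of the fit to 12 columns (black) and the values of 4 alternatives below it. Atp2a2 lies to the right of zero and Casq1 and Pvalb to the left under all 4, while Atp2a1 and Cacna1s cross zero under 1 alternative each.

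Ratios of counts of 2 members within a column do not depend on scaling, and 4 of them are given here. They were chosen after the levels were seen, and each is a ratio of counts, not of molecules. For the 3 whose first gene had already passed on its own level the values are given as a description. A permutation test was run on them too but would repeat that result, so its p enters only the adjustment below. There were 3.67 to 28.5 Atp2a2 counts per 1000 Atp2a1 counts in back muscle (median 6.20) and 55.0 to 73.8 in leg muscle (median 61.6). The mean log2 ratio was 3.10 higher in leg, with no overlap. As a share of the pump counts, Atp2a2 made up 0.365% in back WT3 (95% Clopper-Pearson interval 0.334% to 0.399%), 2.78% in back ST2 (2.69% to 2.86%) and 6.87% in leg ST2 (6.74% to 7.01%). Those intervals cover counting error only.

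The Cacna1s to Ryr1 ratio differed between the muscles although neither level passed its own test. It was 191 to 218 Cacna1s counts per 1000 Ryr1 counts in back muscle and 225 to 265 in leg muscle, with no overlap. The mean log2 ratio was 0.25 higher in leg, against an SD of 0.07 among back and 0.10 among leg columns (exact two-sided permutation p = 0.0022, the smallest that 6 against 6 columns can give; Benjamini-Hochberg adjusted over the 4 ratios 0.0043). Because this ratio too was picked with the values in view, that p is no independent evidence. Back ST2 and ST3, at 197 and 204, lay among the other back columns for this ratio, and the difference without them was 0.24.

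The buffers were also described relative to another member. Casq1 stood at 97.0 to 188 counts per 1000 Ryr1 counts in back and 80.5 to 104 in leg, a mean log2 difference of -0.70. Pvalb stood at 33.4 to 98.7 counts per 1000 Atp2a1 counts in back and 31.3 to 41.1 in leg, a mean log2 difference of -0.88. The muscles overlapped in the Casq1 ratio through back ST2 and in the Pvalb ratio through back ST2 and ST3, and without these columns the differences were -0.96 and -1.30.

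**Figure D4:**
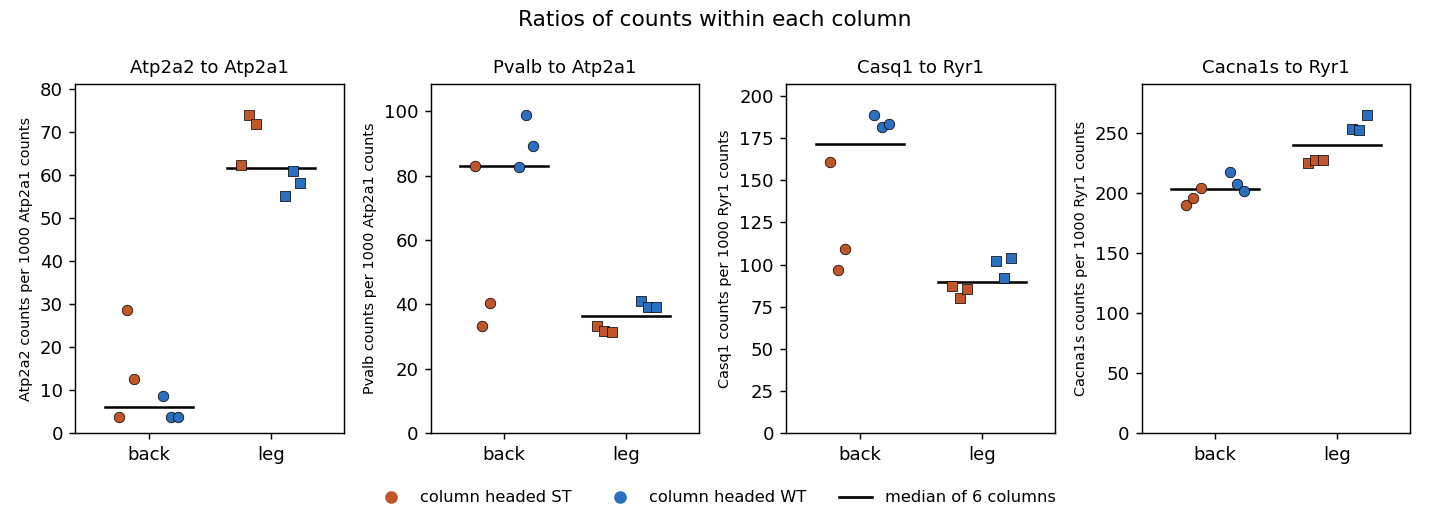
Counts of one gene per 1000 counts of another in each column, for 4 pairs of members, with a line at the median of each muscle and colour for the header code. The Atp2a2 to Atp2a1 and Cacna1s to Ryr1 ratios separate all 6 leg from all 6 back columns, and back ST2 and ST3 lie near the leg columns for Pvalb to Atp2a1 and Casq1 to Ryr1.

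The values also differed between columns by header code, which is described without a test because the codes are not treatments of the labels. In leg muscle the 3 WT columns lay above the 3 ST columns for all 6 genes on the TMM scale. On that scale ST and WT columns did not overlap for 25.3% of all genes tested. The shares over all genes in this paragraph count both directions, and the share with WT higher alone was not computed. Leg TMM factors were 1.11 to 1.19 in the ST and 1.01 to 1.02 in the WT columns. Scaled by total counts, 5 of the 6 still did not overlap, with Ryr1 the exception, and the share over all genes was 35.1%. The 4 ratios did not overlap between ST and WT columns in leg muscle either, but no such share over other gene pairs was computed. Cacna1s stood at 225 to 228 counts per 1000 Ryr1 counts in the ST and 253 to 265 in the WT columns, and Atp2a2 at 62.2 to 73.8 counts per 1000 Atp2a1 counts in the ST and 55.0 to 61.0 in the WT columns. In back muscle 2 of the 6 genes, Casq1 and Cacna1s, were higher in all WT columns than in any ST column on either scale, against 22.5% of all genes not overlapping on the TMM scale and 22.2% by total counts. For Atp2a2 and Pvalb, back ST1 lay within the range of the back WT columns, and ST2 and ST3 lay outside it.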

How the data were processed

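Per the labels' protocols, RNA from 12 rat muscle samples was purified on columns, and a sequencing company made the libraries and paired-end reads. The authors deposited 2 tables of raw gene counts, one per muscle. STAR and DESeq2 are named, without versions, in the submitters' processing notes. For the genome build and annotation, nothing is given in the sources used here. Rows for unmapped, multimapping, featureless and ambiguous reads, 63.6% to 69.7% of the reads in a column, were left out of library sizes.

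All 12 columns were assigned to a muscle from their names and none to a treatment, so the planned MFIT and NT comparisons were not run. Leg was tested against back muscle with edgeR 4.0.16 in R 4.3.3 (filterByExpr, TMM, quasi-likelihood test, Benjamini-Hochberg adjustment over all genes). Standard errors were taken as the log2 difference over the square root of F. The test was checked on simulated data. Alternatives included DESeq2 1.42.0, no filter, each column left out, a replicate block and other choices made after seeing the data. The genes named are all 6 members, whose symbols came with the identifiers that define the set and not from the tables. Members and lists were chosen with earlier results of these data known. The planned lists of other calcium handling genes and cell type markers were not analysed here, since no table pairs mouse identifiers with symbols. No library pair agreed within sampling noise (lowest chi-square per degree of freedom 2.07 over 30 pairs). Each muscle has its own table of counts, so muscle and table cannot be told apart. Collection day is not given for a sample, so its part in the differences is not known.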

Additional observations from a re-analysis of the deposited data

Results flagged for a closer look

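Back ST2 was far from the other back columns in 2 of the 10 sets of 6 back columns that were checked (6 genes and 4 ratios). About 1 in 20 is flagged by chance. The check was Dixon's test on values not put on a log scale. It flags a gap to the next column above 0.625 of the range. The 2 gaps were 0.635 and 0.641 of the range, close to that limit. None of the 10 sets of leg columns was flagged. Its Atp2a2 level was 1228 TMM-scaled CPM, against 549 in the next highest back column. Its Atp2a2 to Atp2a1 ratio was 28.5 counts per 1000, against 12.6 in the next highest. Both rest on the same Atp2a2 counts.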

How the results depend on the processing

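Atp2a2, Casq1 and Pvalb kept their direction under all 21 alternatives each and stayed past the threshold in 20 of them, the exception being the ST columns alone. Scaling by total counts gave 1538 genes higher and 211 lower in leg. It turned Cacna1s to 0.16 on the log2 scale, and Atp2a1 was 0.053 within the WT columns. Without back ST2 and ST3, 3237 genes were called, 1623 higher and 1614 lower. The ST columns alone gave 224, 158 higher and 66 lower, and the WT columns alone, with as many samples, 2164, 1076 higher and 1088 lower. Leaving out each column gave 1031 to 2189 genes, 582 to 1107 higher and 430 to 1082 lower. The count lower in leg dropped by over 1.5 times without back ST1 (430), WT1 (477), WT2 (447) or WT3 (490), or leg ST1 (473) or ST3 (475). The cause was not tested. DESeq2 called 1670 genes and the fit without a low-count filter 1650. A replicate block of the number in the column names gave 1336 genes, and a replicate block of code and number 1833, with no change of call among the 6 genes. These numbers were not taken as pairs, since no label says that they are. To compare same-named columns, the mean log2 CPM of the columns of each muscle and code was first subtracted, gene by gene. Of the remaining deviations, only 2 of 6 same-named pairs correlated over 0.1. By the same measure, 4 of 12 columns correlated best with their own name in the other muscle. With so few columns this cannot show whether a back and a leg column came from the same rat. The treatment comparisons planned with MFIT and NT, and their alternatives, were not run. Depth did not limit these genes, each with at least 503 counts in every column.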
